A study of Mus musculus with 2 samples.

Results

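The gene set described here holds 39 genes of the photoreceptor outer segment and its cilium that are linked to inherited retinal dystrophy, out of 32285 genes counted in each library. Members were picked by symbol from what is known of outer segment discs, the connecting cilium, the BBSome and intraflagellar transport. No measured value entered the rule, though the members were chosen with earlier results of these data known, and all 39 symbols were found. The set was divided by role into 8 genes of the disc and the outer segment matrix, 6 of the axoneme, 5 of the connecting cilium, 8 of lipidated protein trafficking, 8 of the BBSome with Arl6, and 4 of intraflagellar transport.

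Rods and cones capture light in an outer segment, a stack of membrane discs built at the tip of a modified primary cilium. Disc proteins are made in the inner segment and reach the outer segment through the connecting cilium, a narrow bridge of microtubules. Proteins with a lipid anchor need carriers that hide the lipid on the way, trains of intraflagellar transport proteins run along the axoneme, and the BBSome takes membrane proteins back out. Loss of single parts of this machinery causes retinitis pigmentosa, Leber congenital amaurosis or syndromes such as Bardet-Biedl.

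Retinas of untreated C57BLKS mice aged 13 weeks were dissociated and their cells sequenced in droplets with 10x Genomics 3' chemistry, to compare diabetic with control animals. The wild-type group is labelled C57BLKS-Leprwt/wt, and the design text calls the same controls m/m. The db/db group is labelled C57BLKS-Leprdb/db and carries the Lepr mutation in every cell, which removes the signalling form of the leptin receptor and makes mice obese and diabetic. Each genotype had 2 mice and 1 library, cells could not be assigned to mice, and the comparison of genotypes is therefore without replicates. Lepr itself had 6 unique molecular identifiers (UMIs, counts of captured RNA molecules) in each library, too few to check the genotype.

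The libraries held 10230 wild-type and 10963 db/db cells after filtering, with medians of 2314 and 2051 UMIs, and 26 cell barcodes occurred in both. Cells were grouped without using the 39 genes and named from marker genes. Rod-like cells numbered 7432 (wild type) and 8785 (db/db), cone-like cells 572 and 506, bipolar-like cells 712 and 499, and Müller glia-like cells 351 and 204. There were 64 and 66 microglia or macrophage-like and 111 and 29 amacrine-like cells, while 919 and 818 cells mixed with rod RNA were left out of the classes. UMIs were summed per class and library and are given as counts per 1000000 UMIs of that class (CPM), with 95% intervals that cover counting error only. These levels carry no correction for length, so they are compared between cells for 1 gene and not between genes. Of the 39 members, 12 overlap another annotated gene, 3 of them on the same strand (Prom1, Pcdh15 and Rpgr) and 11 on the opposite strand, Rpgrip1 among them, and their counts are less certain.

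Rod RNA was present in every class. Each gene's level in rods was taken as 100%, and the median of 5 rod-only genes (Gnat1, Nrl, Pde6a, Cnga1 and Nr2e3) stood at 34.1% of it in wild-type cones and 28.8% in db/db cones. The same gauge gave 27.4% and 26.2% in bipolar-like cells, 27.3% and 29.3% in Müller glia-like cells, 24.6% and 18.8% in microglia or macrophage-like cells and 16.5% and 21.0% in amacrine-like cells. A member at or below these shares outside rods was read as background.

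Photoreceptors held the highest level of nearly the whole set. In both libraries 36 of 39 members were higher in rod-like or cone-like cells than in the bipolar-like, Müller glia-like and microglial or macrophage-like classes, beside 38.2% of the 10845 genes with enough UMIs. This held for 8 of 8 disc genes, 6 of 6 axoneme genes, 5 of 5 connecting cilium genes and 8 of 8 genes of the BBSome group. The exceptions, named after their values were seen, were Rp2, Ift140 and Kif3a, and Kif3a joined the 36 under a stricter cell filter. Of 79 other genes of the same roles, 46 were highest in photoreceptors.

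**Figure D1:**
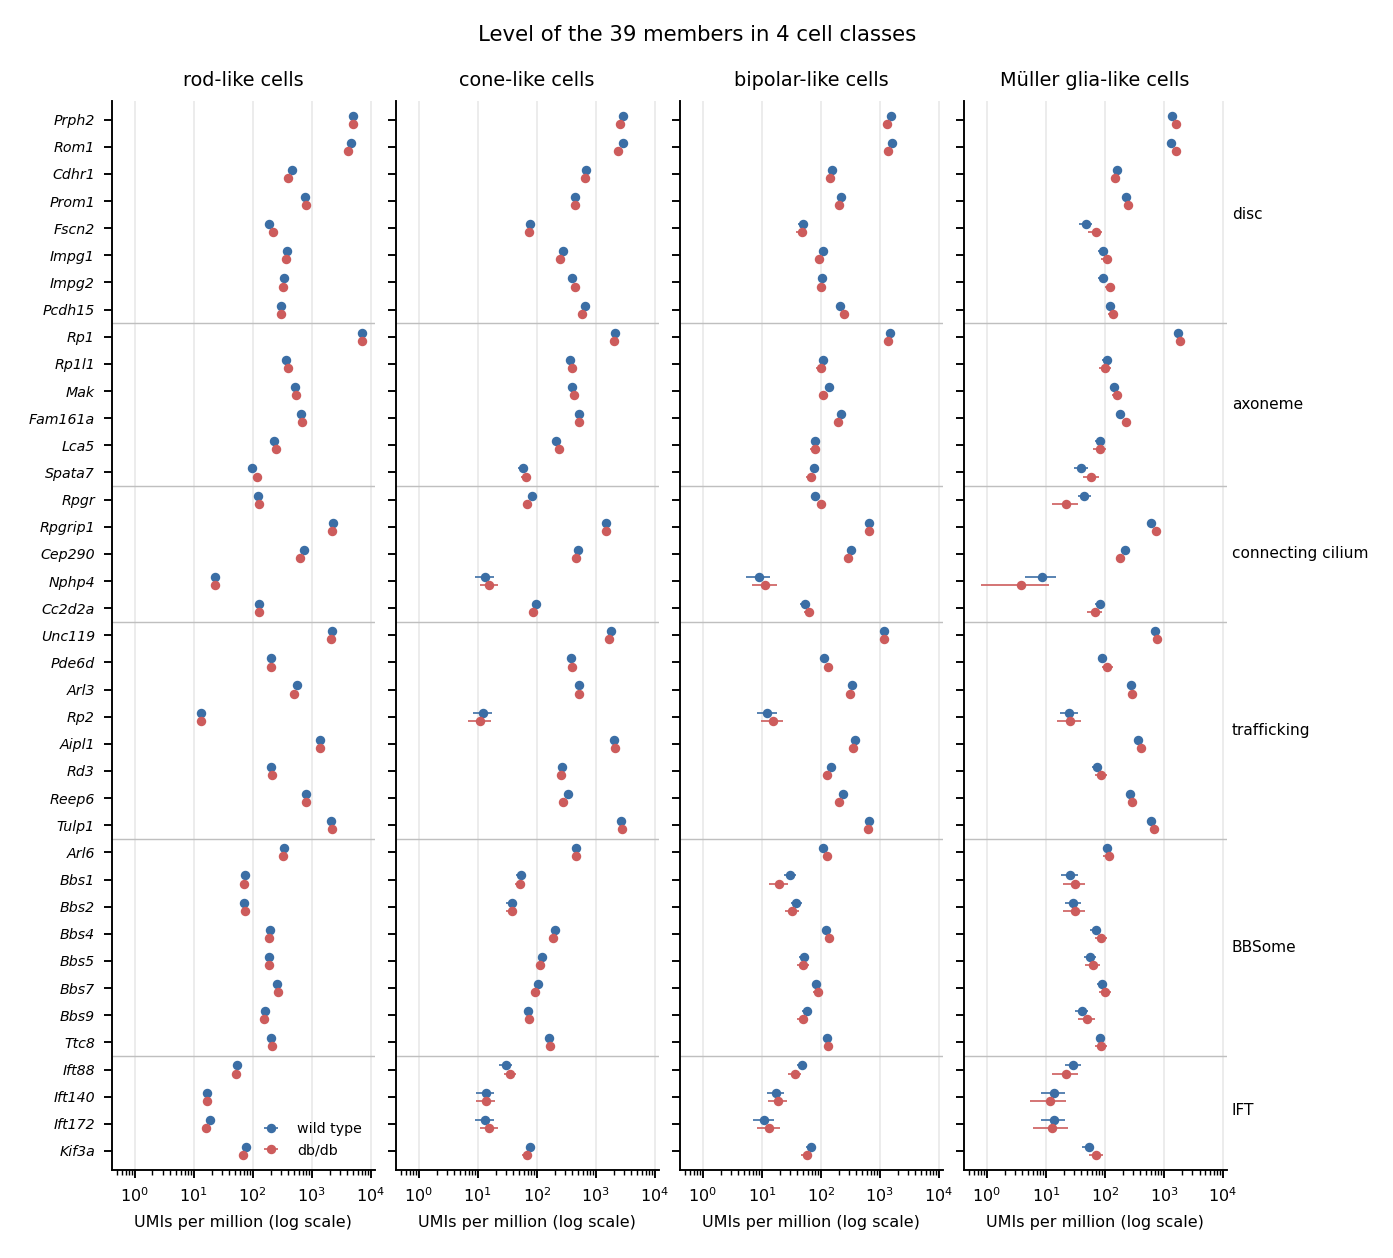
Level of each member in rod-like, cone-like, bipolar-like and Müller glia-like cells of the wild-type (blue) and db/db (red) library, in CPM on a log axis, with 95% counting intervals and members grouped by role. The 2 libraries lie close together for most members, and rod-like levels run from 13.2 CPM (Rp2) to 6965 CPM (Rp1) in the wild-type library.

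Within photoreceptors most members made up a larger share of UMIs in rods than in cones. Median depth was 2232 and 1944 UMIs in rods and 4198.5 and 4253.5 UMIs in cones, so a higher CPM in rods need not mean more UMIs per cell. A member was counted as higher in one type when the cone to rod ratio pointed the same way in both libraries, which gave 29 of 39 higher in rods and 8 of 39 higher in cones, beside 54.7% of all genes higher in rods and 30.7% higher in cones. For 6 of the 29, Rp1l1, Lca5, Rp2, Ift140, Ift172 and Kif3a, the counting interval reached 0 in at least 1 library, and for 23 it lay below 0 in both. The 8 were Cdhr1, Impg2, Pcdh15, Pde6d, Aipl1, Rd3, Tulp1 and Arl6, and all 16 of their intervals lay above 0. The median log2 ratio of cone to rod was -0.38 over the members and -0.20 over all genes. Rod RNA in the cone class is part of these ratios, and the 5 rod-only genes themselves stood between -1.30 and -2.38.

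**Figure D2:**
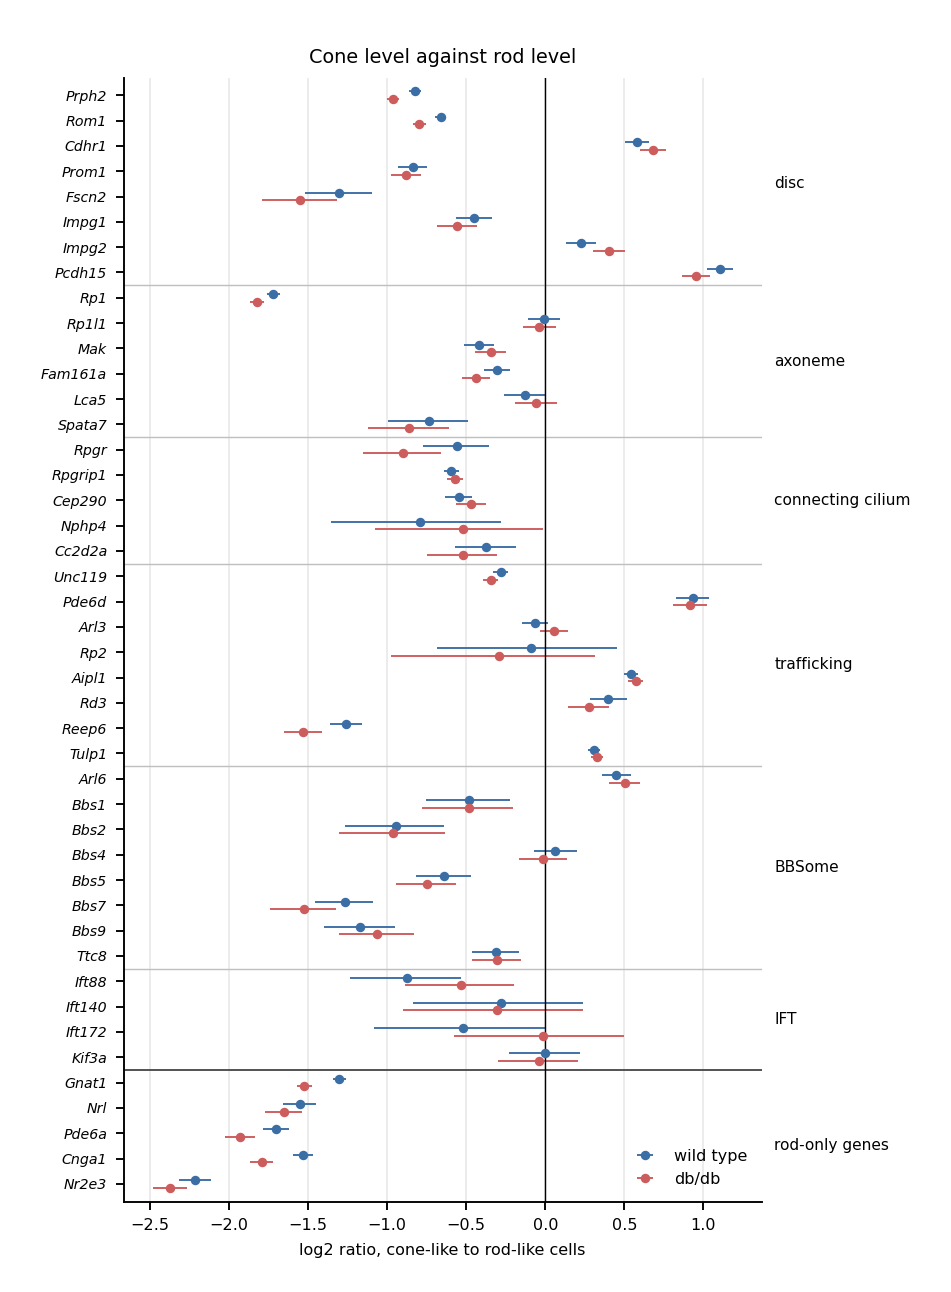
Log2 ratio of cone-like to rod-like level for each member in the wild-type (blue) and db/db (red) library with 95% counting intervals, and below the line the same ratio for 5 rod-only genes. Pcdh15 and Pde6d lie farthest to the right at 1.11 and 0.93 in the wild-type library, and Rp1 lies as far left as the rod-only genes at -1.72.

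Disc genes split between the photoreceptor types. Prph2 encodes peripherin 2, a tetraspanin that bends the disc rim (chromosome 17, 46910459 to 46924933, plus strand, GRCm38). It stood at 5043 CPM in wild-type and 4927 CPM in db/db rods, and at 2849 and 2526 CPM in cones. That is 56.5% and 51.3% of the rod level, above the share of free rod RNA in cones. Its partner Rom1 was at 4541 and 4060 CPM in rods and at 2873 and 2338 CPM in cones.

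Fscn2, an actin bundling protein of photoreceptors, had the lowest cone to rod ratio of the disc genes. It measured 192 and 216 CPM in rods against 77.6 and 73.8 CPM in cones, or 40.5% and 34.1% of the rod level. The 5 rod-only genes ranged from 21.5% to 40.5% in wild-type and from 19.3% to 34.8% in db/db cones, so that Fscn2 in cones could not be told from free rod RNA. With the rod profile subtracted from the cone class, scaled to its rod-only level, the log2 ratio of Prph2 to rods moved from -0.82 and -0.96 to -1.56 and -1.67. That of Fscn2 moved from -1.30 and -1.55 to -3.36 and -3.75.

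Pcdh15, an unconventional cadherin of the calyceal processes around the outer segment base, had the highest cone to rod ratio of the disc genes. It stood at 303 and 300.2 CPM in rods and at 652 and 581 CPM in cones, with log2 ratios of 1.11 (interval 1.03 to 1.19) and 0.95 (0.86 to 1.04). Cdhr1, the cadherin of nascent discs, was at 457 and 403 CPM in rods and 683 and 645 CPM in cones. Impg2, a proteoglycan of the matrix between photoreceptors, was at 338 and 330.1 CPM in rods and 396 and 436 CPM in cones. Its relative Impg1 went the other way, at 384 and 364 CPM in rods and 281 and 247 CPM in cones, and Prom1, which shapes disc edges, was at 781 and 803 CPM in rods and 437 and 436 CPM in cones.

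The ratio of cone to rod was below 0 in both libraries for all 6 axoneme genes, except that Rp1l1 was higher in cones when the class total was taken without mitochondrial, haemoglobin and ribosomal protein UMIs, and Rp1l1 or Lca5 was under some other settings. Rp1 encodes a doublecortin-domain protein that lines the axoneme (chromosome 1, 3999557 to 4409241, minus strand). It stood at 6965 and 7221 CPM in rods and at 2112 and 2041 CPM in cones, or 30.3% and 28.3% of the rod level, which lies within the range of the rod-only genes. Its relative Rp1l1 was at 368 and 400 CPM in rods and 366 and 390 CPM in cones, with log2 ratios of -0.0087 (-0.11 to 0.09) and -0.04 (-0.14 to 0.07). The pair thus differed in the cone class, where Rp1 was at the level of free rod RNA and Rp1l1 near the rod level. The kinase Mak, the microtubule protein Fam161a and the ciliary protein Lca5 lay between them, at 73.8% to 95.9% of the rod level in either library. Spata7 was lower, at 60.1% and 55.1%.

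Connecting cilium genes were lower in cones as a group, with 5 of 5 members and a median log2 ratio of -0.58. Rpgrip1, the scaffold that holds Rpgr at the connecting cilium, was at 2286 and 2218 CPM in rods and at 1514 and 1492 CPM in cones. Rpgr, whose loss causes X-linked retinitis pigmentosa, was at 124 and 128 CPM in rods and at 84.2 and 68.5 CPM in cones. Cc2d2a, a transition zone protein, had the highest mean ratio of the group, at 77.1% and 69.6% of the rod level. Nphp4 had 32 and 33 UMIs in the cone class, and its intervals ran from -1.36 to -0.28 and from -1.07 to -0.015. Cep290, a transition zone linker, measured 68.4% and 72.2% of the rod level in cones.

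Trafficking genes were the group with the most members higher in cones, 4 of 8. Pde6d, the carrier that extracts prenylated proteins such as the rod and cone phosphodiesterases from membranes, stood at 203 and 207 CPM in rods and at 387 and 390.2 CPM in cones. Aipl1, the chaperone of those phosphodiesterases, was at 1367 and 1397 CPM in rods and 1993 and 2077 CPM in cones. Tulp1, which helps membrane cargo reach the outer segment, was at 2126 and 2183 CPM in rods and 2636 and 2740.1 CPM in cones. Rd3, which escorts guanylate cyclases, was at 206 and 212 CPM in rods and 272 and 256 CPM in cones.

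The carrier of myristoylated proteins, Unc119, was lower in cones, at 82.2% and 78.7% of the rod level. Reep6, an endoplasmic reticulum protein of the rod secretory route, was at 802 and 796 CPM in rods and at 335 and 275 CPM in cones, or 41.8% and 34.6%, next to the highest rod-only gene in either library. Arl3, the GTPase that releases cargo from Unc119 and Pde6d, did not separate the types, at 552 and 501 CPM in rods and 528 and 522 CPM in cones, with a wild-type interval of -0.15 to 0.02 and a db/db interval of -0.03 to 0.15. Its GTPase-activating protein Rp2 had 30 and 23 UMIs in cones, too few to order the types.

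In the BBSome group the recruiter and the coat differed. Arl6, the GTPase that brings the BBSome to membranes, stood at 334 and 323 CPM in rods and at 456 and 458 CPM in cones, with log2 ratios of 0.45 (0.36 to 0.54) and 0.50 (0.40 to 0.60). Of the 7 BBSome subunits 6 were lower in cones in both libraries. Bbs7 had the lowest ratio, at 257 and 265 CPM in rods and 107 and 91.8 CPM in cones, and Bbs9 followed at 162 and 154 CPM in rods and 71.9 and 73.8 CPM in cones. Bbs4, which was higher in cones under several other settings, was the exception, with log2 ratios of 0.06 (-0.07 to 0.20) and -0.01 (-0.17 to 0.14). The subunits assemble into a single coat complex, and their RNA levels in cones ran from 34.7% (Bbs7) to 99.2% (Bbs4) of their rod levels in the db/db library. There Bbs7 lay within the range of the rod-only genes, so that it could not be told from free rod RNA. With free rod RNA subtracted, its log2 ratios were -3.15 (wild type) and -3.60 (db/db).

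Intraflagellar transport genes were sparse. The motor subunit Kif3a was at 75.7 and 68.9 CPM in rods and at 75.6 and 67.1 CPM in cones, with intervals of -0.23 to 0.22 and -0.30 to 0.21 around a log2 ratio near 0, and it was higher in cones under that same scaling. Ift88, a core part of the anterograde train, was at 54.5 and 51.7 CPM in rods and 29.7 and 35.7 CPM in cones. Ift140 and Ift172 had between 29 and 33 UMIs in the cone class of either library, too few to order the types.

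Among cones, 327 wild-type and 271 db/db cells had more UMIs of the short-wave opsin Opn1sw and 220 and 221 more of the middle-wave opsin Opn1mw, with median depths of 4304, 4068, 4138.5 and 4544 UMIs. Of 35 members with enough UMIs, 3 had an interval above 0 in both libraries, higher where Opn1mw led (background 1.69%), and 1 had an interval below 0 (background 1.26%). The background genes were not matched to the members in UMIs, on which the width of an interval depends. Cdhr1 was higher by a log2 ratio of 0.39 (0.24 to 0.53) and 0.30 (0.14 to 0.46), and Rp1l1 by 0.26 (0.06 to 0.46) and 0.56 (0.35 to 0.76). Rom1 was higher by 0.08 and 0.24, and Pcdh15 was lower by -0.22 (-0.37 to -0.06) and -0.40 (-0.56 to -0.23). The rod-only level was similar in these cells, between 27.6% and 34.0% of the rod level.

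Outside photoreceptors fewer members than genes at large stood above free rod RNA. In bipolar-like cells 18 of 39 members, beside 79.3% of the 10845 genes, had an interval above the highest rod-only gene in both libraries (33.4% of the rod level for wild type and 31.6% for db/db). In Müller glia-like cells 8 of 39 did, beside 66.7% of all genes. The 8 were Pcdh15, Spata7, Cc2d2a, Pde6d, Arl3, Rp2, Ift172 and Kif3a, and all 8 were also among the 18 in bipolar-like cells. In microglia or macrophage-like cells it was 1 of 39, Rp2, beside 26.5% of all genes. Rom1 and Pcdh15 were the disc genes among the 18, and Rom1 was at 35.4% and 33.9%.

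**Figure D3:**
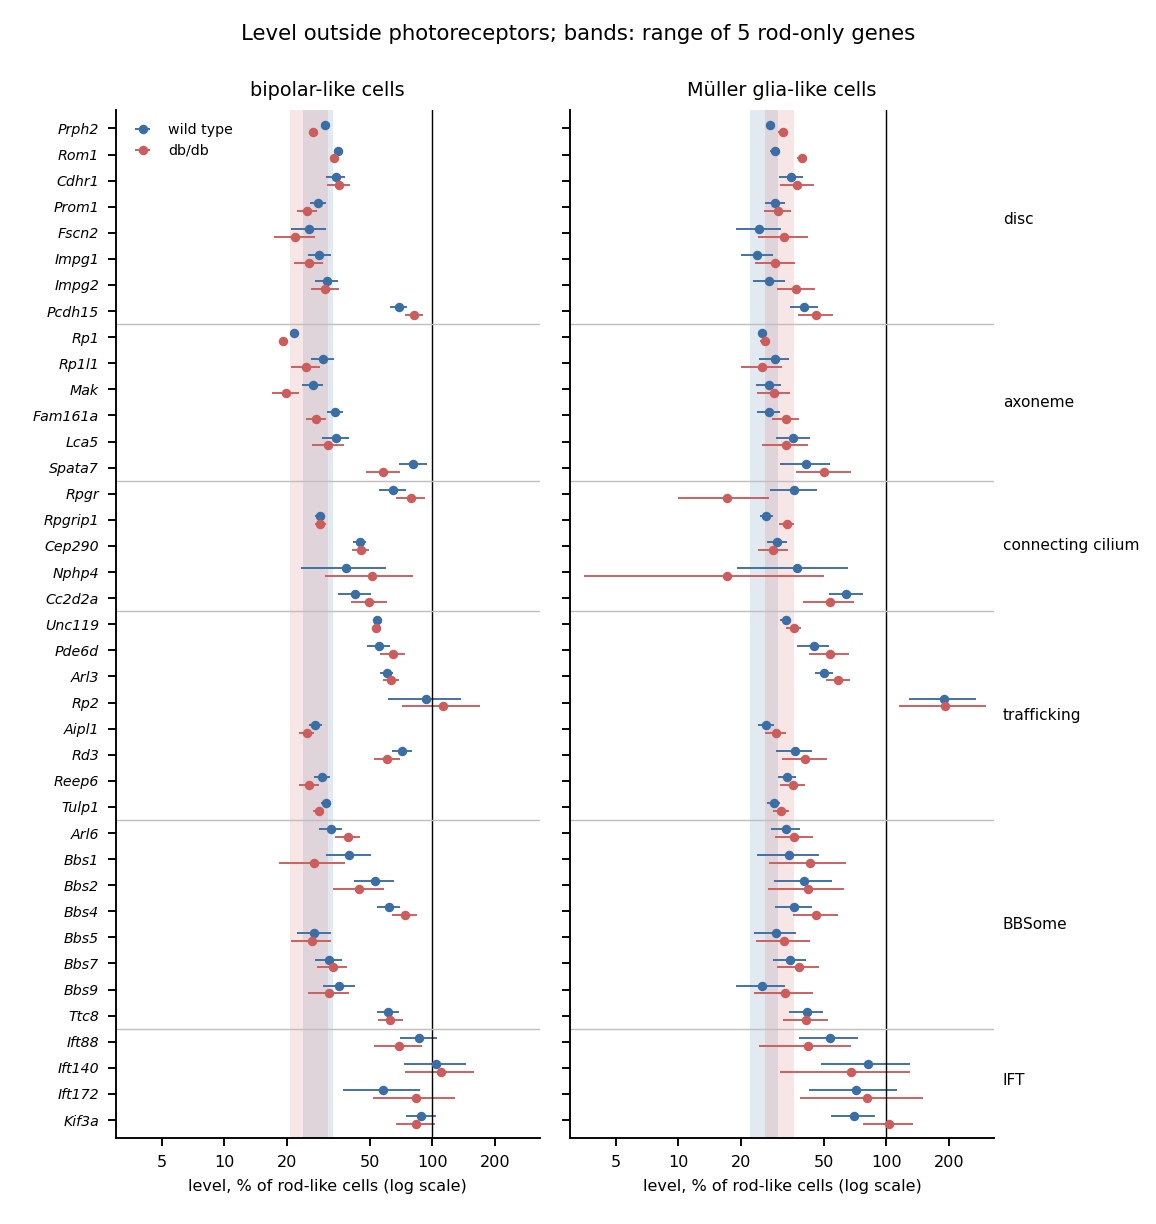
Level of each member in bipolar-like (left) and Müller glia-like (right) cells as a percentage of its rod-like level, on a log axis, in the wild-type (blue) and db/db (red) library with 95% counting intervals. Shaded bands span the 5 rod-only genes, 23.9% to 33.4% in wild-type bipolar-like cells, and disc genes other than Pcdh15 sit in or next to the bands while intraflagellar transport genes sit to the right of them.

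The 4 intraflagellar transport genes stood above the band in bipolar-like cells, as did 79.3% of all genes, so this does not set them apart from genes at large. Ift140 was at 17.2 and 18.8 CPM there against 16.5 and 17.0 CPM in rods, and Kif3a at 67.0 and 57.6 CPM against 75.7 and 68.9 CPM. In Müller glia-like cells only Ift172 and Kif3a of the 4 had intervals above the band in both libraries, beside 66.7% of all genes. Kif3a was at 52.7 and 70.6 CPM there. In amacrine-like cells Kif3a was higher than in rods, at 160 CPM from 94 UMIs and 158 CPM from 19 UMIs, with log2 ratios of 1.08 (0.76 to 1.38) and 1.19 (0.46 to 1.84). Primary cilia, and the trains that build them, occur on most cell types.

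Other ciliary members were shared in part. Rpgr in bipolar-like cells was at 80.2 and 101 CPM, or 64.6% and 79.1% of its rod level, whereas its partner Rpgrip1 was at 28.9% and 28.9%, within the band. Spata7 was at 81.2% and 58.3%, Bbs4 at 61.8% and 73.8% and Ttc8 at 61.6% and 62.9%. Bbs5, Bbs7 and Bbs9 lay between 26.3% and 35.7%, so that some subunits lay near the band and others well above it. Among carriers, Unc119 was at 54.3% and 53.7%, Arl3 at 60.5% and 63.2% and Rd3 at 71.9% and 60.7%, while Aipl1, Tulp1 and Reep6 stayed between 24.9% and 30.7%.

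Rp2, the Arl3 regulator, was higher in Müller glia-like cells than in rods. It stood at 13.2 and 13.4 CPM in rods, 12.3 and 15.2 CPM in bipolar-like cells, 24.9 and 25.7 CPM in Müller glia-like cells and 37.4 and 25.2 CPM in microglia or macrophage-like cells. The Müller glia-like values came from 35 and 20 UMIs and were higher than in rods by a log2 ratio of 0.92 (0.37 to 1.43) and 0.94 (0.20 to 1.58). The microglia or macrophage-like values rested on 8 and 7 UMIs, and the db/db interval there ran from -0.42 to 1.96 against rods.

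The promoters were searched for 3 short motifs known from ciliary and photoreceptor genes. RefSeq promoters (250 bases before to 50 after the start, GRCm38.p6) matched 36 of 39 members by symbol, not Rp1, Rp1l1 or Reep6, and gave 47 promoters. On both strands, GTTGCC, the core of the X-box that RFX factors bind in ciliary genes, was in 12 of 47 member promoters (25.5%) and in 12.5% of all 32851. Overlapping promoters of Lca5 hold the same match, which was counted for each. By gene GTTGCC was in 11 of 36 members, beside 14.1% of all 27025 genes. It was in 4 of 4 intraflagellar transport genes, 3 of 8 of the BBSome group and 2 of 7 trafficking genes. It was also in 1 of 4 axoneme genes, 1 of 5 connecting cilium genes and 0 of 8 disc genes. TAATCC, the core that the photoreceptor factor Crx binds, was in 5 of 47 (10.6%) beside 7.06% of all, and TGCTGA, the core of sites for Nrl and other Maf factors, in 8 of 47 (17.0%) beside 19.5%. No match of 2 of these words overlapped. A match in these windows is a description of letters and not a measured site.

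The 4 intraflagellar transport promoters are shown because all hold GTTGCC and all 4 genes were above free rod RNA in bipolar-like cells. The latter held for 79.3% of all genes, and the promoters were chosen after these values were seen. Of the 11 members with GTTGCC, 6 were above the highest rod-only gene there, as were 12 of the 25 members whose promoters lack it. Bbs5 (27.0% and 26.3% of the rod level) and Bbs7 (31.9% and 33.2%) hold GTTGCC and were not above. Each line runs 5' to 3' on the strand of the gene, from 170 bases before to 30 after the start, and capitals mark GTTGCC or its reverse complement GGCAAC.
Ift88 (chr14:57423901-57424100, plus strand): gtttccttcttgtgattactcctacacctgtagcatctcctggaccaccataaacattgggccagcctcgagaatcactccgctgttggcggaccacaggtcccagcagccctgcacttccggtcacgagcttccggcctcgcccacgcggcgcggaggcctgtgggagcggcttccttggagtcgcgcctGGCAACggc
Ift140 (chr17:25015916-25016115, plus strand): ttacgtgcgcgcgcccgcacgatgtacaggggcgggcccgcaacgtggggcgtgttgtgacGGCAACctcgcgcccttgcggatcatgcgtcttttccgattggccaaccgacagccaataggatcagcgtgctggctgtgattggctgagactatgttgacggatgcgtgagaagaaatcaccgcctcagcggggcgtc
Ift172 (chr5:31291085-31291284, minus strand): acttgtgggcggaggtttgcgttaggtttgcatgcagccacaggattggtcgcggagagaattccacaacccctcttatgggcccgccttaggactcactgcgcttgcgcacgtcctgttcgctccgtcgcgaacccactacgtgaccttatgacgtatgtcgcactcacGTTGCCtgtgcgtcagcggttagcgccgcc
Kif3a (chr11:53567199-53567398, plus strand): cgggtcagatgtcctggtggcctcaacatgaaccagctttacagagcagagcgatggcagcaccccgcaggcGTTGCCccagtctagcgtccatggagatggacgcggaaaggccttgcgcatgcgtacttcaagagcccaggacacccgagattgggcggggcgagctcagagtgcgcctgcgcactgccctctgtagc
In Ift140 the match lies 109 bases before the start, and in Kif3a 98 bases before it. In Ift88 it lies 21 bases after the start, and in Ift172 at the start itself.

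A pair of photoreceptor promoters is shown for contrast, since Aipl1 and Rpgrip1 stayed within the band of free rod RNA in bipolar-like cells and both hold TAATCC. Unc119 holds TAATCC as well and was above the band, at 54.3% and 53.7%. Capitals mark its reverse complement GGATTA, on the same window of 200 bases.
Aipl1 (chr11:72037480-72037679, minus strand): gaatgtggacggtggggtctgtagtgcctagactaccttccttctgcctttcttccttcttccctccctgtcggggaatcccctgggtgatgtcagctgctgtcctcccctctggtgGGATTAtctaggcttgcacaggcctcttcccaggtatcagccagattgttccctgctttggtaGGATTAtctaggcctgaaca
Rpgrip1 (chr14:52110733-52110932, plus strand): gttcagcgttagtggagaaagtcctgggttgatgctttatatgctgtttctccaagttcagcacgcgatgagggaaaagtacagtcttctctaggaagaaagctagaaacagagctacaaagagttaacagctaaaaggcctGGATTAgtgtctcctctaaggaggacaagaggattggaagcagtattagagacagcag
Aipl1 held 2 matches, 53 bases before and 10 bases after its start, and Rpgrip1 held 1 match 28 bases before its start. The other members with TAATCC were Mak, Unc119 and Bbs1.

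Rods differed among themselves in these genes by role. They were divided by the share of their UMIs from mitochondrial genes, with 2675 wild-type and 3874 db/db rods under 2%, 3448 and 3144 at 2 to 6%, and 1309 and 1767 at 6 to 20%. Levels and ratios within these ranges are per 1000000 UMIs counted without mitochondrial genes, unlike the levels of whole classes. Within 0.5 points of the limit of 2% lay 1381 and 1361 rods. Between the highest and the lowest range, 6 of 39 members passed a log2 ratio of 0.5 upwards in both libraries (background 6.88%) and 11 of 39 passed -0.5 downwards (background 37.5%). The median over all genes was itself -0.44 and -0.45, and the members' median was -0.19 and -0.21. Median depth was 1634 and 1643 UMIs in the lowest range and 2501 and 2166 UMIs in the highest, and its part in these ratios was not tested.

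By their group medians, disc and trafficking genes stood above the median of all genes, and axoneme and connecting cilium genes stood below it. Rom1 was at 3608 and 3206 CPM in rods under 2% and at 7011 and 6683 CPM in rods of 6 to 20%. Arl3 was at 448 and 407 CPM in the lowest and at 863 and 788 CPM in the highest range. Rp1 went from 8553 and 8774 CPM in the lowest to 4716 and 4702 CPM in the highest range. The same order was seen in both libraries, with group medians of 0.36 and 0.38 for disc genes, 0.43 and 0.43 for trafficking genes, -0.82 and -0.75 for axoneme genes and -0.69 and -0.85 for connecting cilium genes. All 8 genes of the BBSome group were lower in the highest range, as were 72.0% of all genes, and their medians of -0.30 and -0.25 lay above those of all genes.

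A rod cluster led by ribosomal protein genes, made mostly of rods of 6 to 20%, showed the same division by role. It had 537 wild-type and 733 db/db cells with median mitochondrial shares of 8.83% and 10.4%. Of these cells 463 and 670 were rods of 6 to 20%, and they made up 35.4% and 37.9% of that range. The cluster and the mitochondrial split thus share cells, and the cluster is not a separate showing of the division. The cells were classed as rods, with 16289 and 16678 CPM of the 5 rod-only genes together. Gnat1 made the largest part, at 8996 and 9189 CPM against 4987 and 4443 CPM in the other rods. Nr2e3 was lower, at 920 and 993 CPM against 1555 and 1850 CPM, while Nrl, Pde6a and Cnga1 were higher. Against the other rods, 7 of 39 members passed a log2 ratio of 0.5 upwards in both libraries (background 7.00%) and 18 were lower by as much (background 59.1%). The median over all genes was itself -0.83 and -0.91, and the members' median was -0.39 and -0.40. The members were not used in the clustering, but the cells are the ones clustered, so these ratios are a description.

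**Figure D4:**
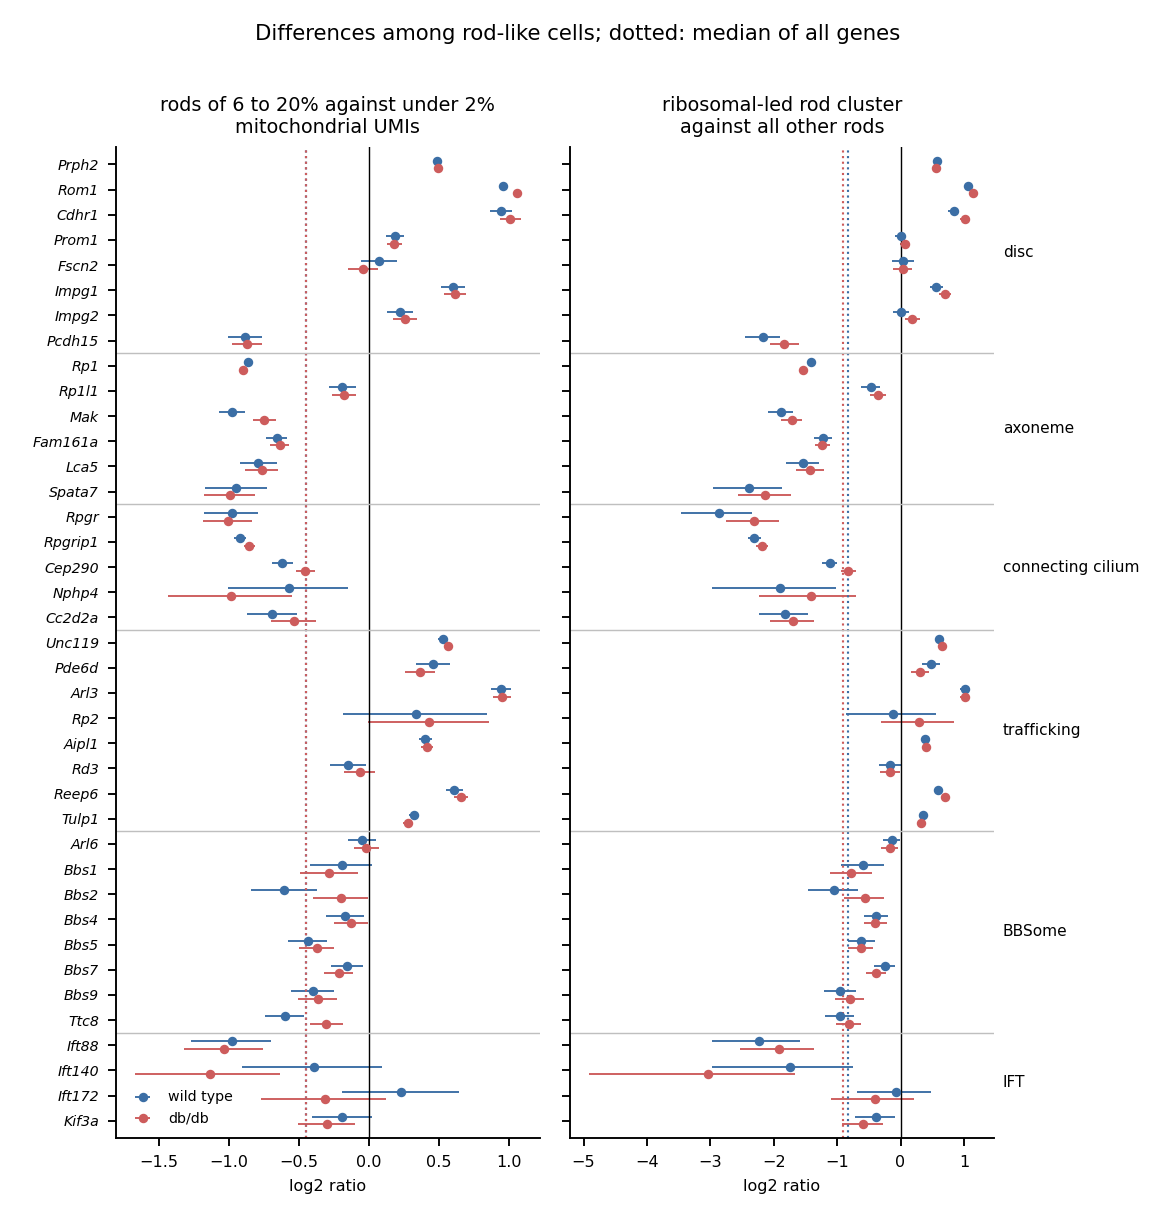
Log2 ratio of each member between rods of 6 to 20% and rods under 2% mitochondrial UMIs (left) and between the ribosomal protein-led rod cluster and all other rods (right), in the wild-type (blue) and db/db (red) library, with 95% counting intervals and dotted lines at the median of all genes; axis ranges differ. On the right Rom1 and Arl3 lie above 1, and Rp1 and Rpgrip1 lie below -1.

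The 7 higher members were disc or trafficking genes and the 18 lower ones mostly ciliary. Of the 18, 5 were of the BBSome group, whose medians of -0.61 and -0.60 lay above those of all genes. Rom1 stood at 8824 and 8258 CPM in the cluster and 4227 and 3732 CPM in the other rods, with log2 ratios of 1.06 and 1.15. Arl3 stood at 1040 and 945 CPM in the cluster and 517 and 467 CPM in the other rods. Prph2, Cdhr1, Impg1, Unc119 and Reep6 were the others, between 0.56 and 1.01.

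All 5 connecting cilium genes were lower by at least 0.5 in the cluster (background 59.1%). Their medians were -1.90 and -1.70, beside -0.83 and -0.91 over all genes. Rpgrip1 was at 489 and 518 CPM there and at 2417 and 2351 CPM in the other rods. Rpgr was lowest, at 18.1 and 27.2 CPM from 28 and 49 UMIs, with log2 ratios of -2.87 (-3.46 to -2.34) and -2.32 (-2.76 to -1.91). Of the axoneme genes 5 of 6 were lower by at least 0.5 (the same background), with group medians of -1.47 and -1.48. Spata7 stood at -2.39 and -2.13. Rp1l1 had the smallest ratios at -0.47 and -0.35, above the medians of all genes. Pcdh15 was the disc gene that went with the ciliary genes, at 70.9 and 89.0 CPM against 320.2 and 317 CPM.

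Gene length moved with this split. The 7 higher members spanned a median of 14.5 kb of the genome and the 18 lower ones 70.6 kb. Across the 39 genes the rank correlation of span with the log2 ratio was -0.60 for wild type and -0.58 for db/db, over genes that share libraries and depth. The nuclear RNA Malat1 was also low in the cluster, at 5656 CPM against 61738 CPM in other wild-type rods and 5643 against 65216 CPM in db/db rods. The part of gene length, of nuclear RNA and of mitochondrial share in the members' split was not tested.

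In rods the db/db and wild-type libraries differed little over the set. No member of 39 reached a log2 ratio of 0.5 either way, beside 3.40% of 11746 genes past it higher in db/db and 2.37% lower. The members' median was -0.01, beside 0.03 over all genes. With 1 library per genotype the difference cannot be told apart from a difference between libraries. Intervals of counting error alone lay above 0 for 10 of 39 members (background 20.7%) and below 0 for 12 of 39 (background 12.6%). The members' intervals were narrower than those of all genes, with median bounds of -0.06 and 0.06 against -0.14 and 0.19. Narrower intervals leave out 0 more often at the same ratio, so such shares are not like for like, here or in other classes.

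**Figure D5:**
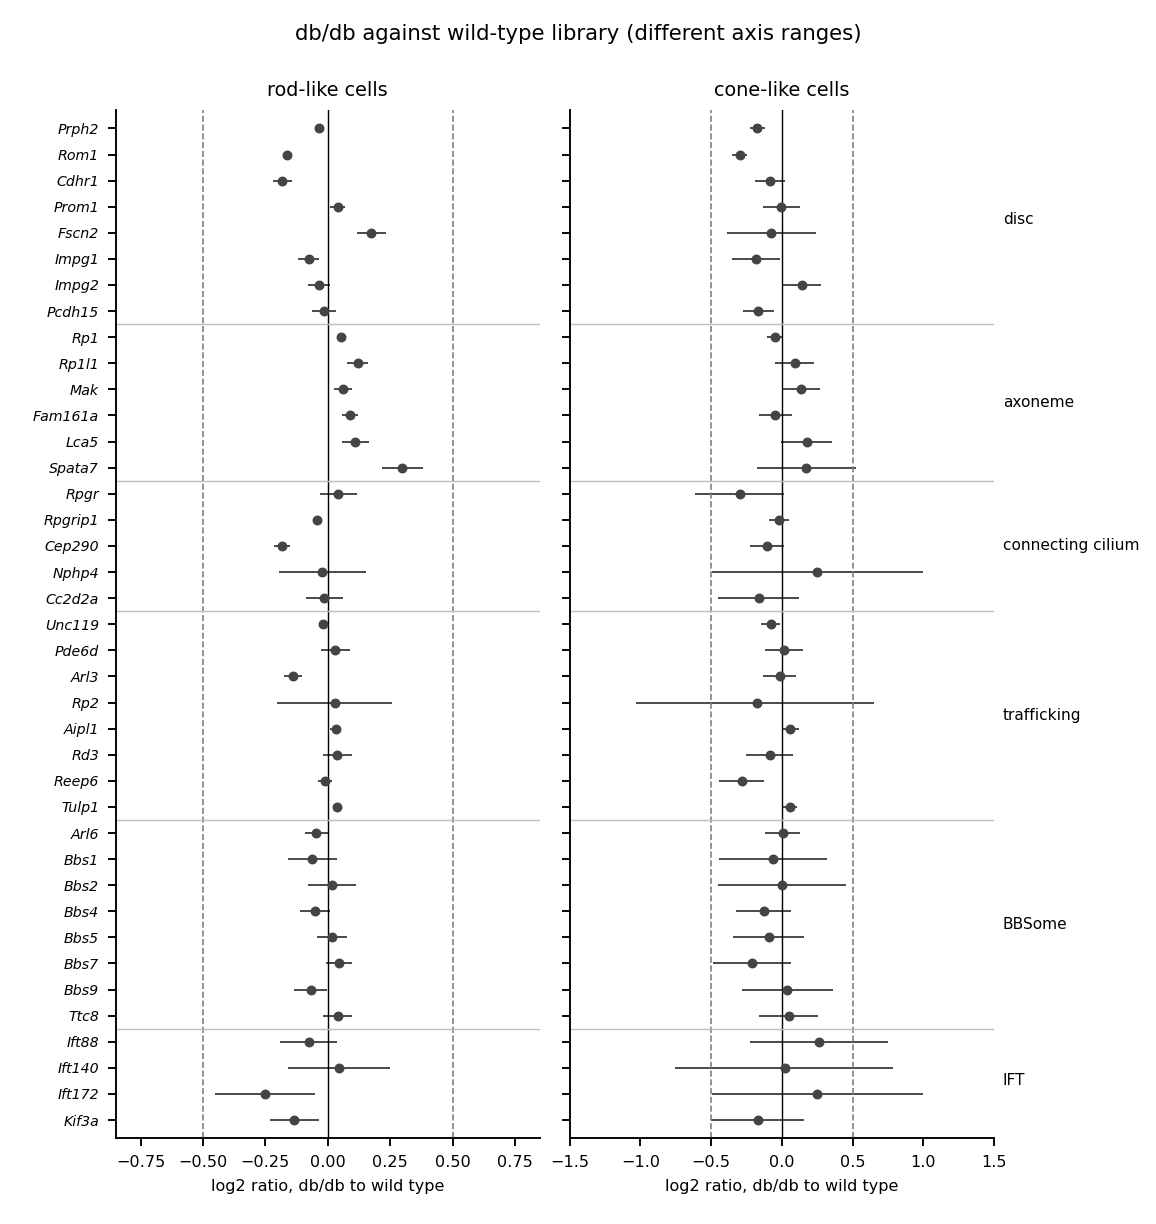
Log2 ratio of db/db to wild-type level for each member in rod-like and cone-like cells with 95% counting intervals, ordered by role, on different axis ranges and with dashed lines at a log2 ratio of 0.5 either way. All rod-like values lie between -0.25 (Ift172) and 0.30 (Spata7), and no member passes 0.5 in either class.

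Axoneme genes lay on one side. All 6 were higher in the db/db library with intervals above 0, and their median was 0.10. Over all genes, whose intervals were wider, 57.6% were higher in db/db and 20.7% had an interval above 0. Spata7, a connecting cilium and axoneme protein linked to Leber congenital amaurosis, was at 95.5 CPM (2174 UMIs) in wild-type and 118 CPM (2913 UMIs) in db/db rods, a log2 ratio of 0.30 (0.22 to 0.38). Rp1l1 was at 368 and 400 CPM, a log2 ratio of 0.12 (0.08 to 0.16). Within the 3 mitochondrial ranges the axoneme genes were higher in 6, 6 and 5 of 6, where Rp1 in the highest range stood at -0.0043, and Spata7 stood at 0.34, 0.17 and 0.29. Their medians there were 0.06, 0.07 and 0.12, beside 0.02, 0.02 and 0.01 over all genes. The ranges divide the same rods, and no share of all genes higher is given for them. Some of the axoneme intervals within the ranges held 0, among them Mak under 2% (-0.05 to 0.05) and Rp1 at 2 to 6% (-0.0086 to 0.022). In cones 4 of the 6 were higher in db/db, 1 with an interval above 0, beside 51.8% of all genes higher. In bipolar-like cells all 6 were lower, with a median of -0.17, while 47.5% of all genes were higher.

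Disc genes were mixed in rods, with 6 of 8 lower in db/db (4 intervals below 0) and 2 higher (2 intervals above 0). Over all genes 57.6% were higher in rods. In cones and in bipolar-like cells 7 of 8 disc genes were lower, where 51.8% and 47.5% of all genes were higher. Fscn2 was at 192 CPM in wild-type and 216 CPM in db/db rods, a log2 ratio of 0.17 (0.12 to 0.23). Rom1 was at 4541 and 4060 CPM, a log2 ratio of -0.16 (-0.17 to -0.15). Cdhr1 was at 457 and 403 CPM, a log2 ratio of -0.18 (-0.22 to -0.14). Within the mitochondrial ranges, which held different shares of the rods of either library, Rom1 stood at -0.17, -0.13 and -0.07 and Cdhr1 at -0.18, -0.13 and -0.11.

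Cep290 and Ift172 were ciliary genes lower in db/db. Cep290 was at 725 and 638 CPM, a log2 ratio of -0.18 (-0.21 to -0.15), and within the mitochondrial ranges at -0.23, -0.21 and -0.06. Ift172 had the lowest ratio of the set, -0.25 (-0.45 to -0.05), from 431 and 394 UMIs. In rods of 6 to 20% it stood at -0.64 (-1.17 to -0.12) from 75 and 56 UMIs. Ift140 stood at -0.53 from 47 and 38 UMIs, with an interval of -1.18 to 0.12 that holds 0. These 2 members passed the fold in that range, for which no share of all genes is given.

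In cones, as in rods, no member of 39 passed a log2 ratio of 0.5 (background 4.05% higher and 3.13% lower of 8263 genes). The members' median was -0.05, beside 0.01 over all genes. Rom1 was at 2873 CPM (6956 UMIs) in wild-type and 2338 CPM (4913 UMIs) in db/db cones, a log2 ratio of -0.30 (-0.35 to -0.24). Reep6 was at 335 and 275 CPM, a ratio of -0.29 (-0.44 to -0.13), and Prph2 at 2849 and 2526 CPM, a ratio of -0.17 (-0.23 to -0.12).

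Rod markers moved with these genes in the cone class. The summed level of 9 rod markers was 14503 CPM in wild-type and 12660.3 CPM in db/db cones, with 8 of 9 lower in db/db, and its part in the lower Rom1, Reep6 and Prph2 was not tested. Intervals lay above 0 for 3 of 39 members (background 5.17%) and below 0 for 6 of 39 (background 4.60%). The 3 were Impg2 at 396 and 436 CPM, Mak at 392 and 431 CPM and Tulp1 at 2636 and 2740.1 CPM, with log2 ratios of 0.14, 0.14 and 0.06.

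Outside photoreceptors counts were small and free rod RNA moved along with the members. In bipolar-like cells 1 of 37 measured members passed the fold lower in db/db (background 4.59%) and 0 passed it higher (background 3.99%). Bbs1, a BBSome subunit, stood at 29.98 CPM (68 UMIs) and 19.4 CPM (32 UMIs), a log2 ratio of -0.63 (-1.28 to -0.0021). Pcdh15 was at 209 and 247 CPM and Rpgr at 80.2 and 101 CPM, with ratios of 0.24 and 0.33, and both were above the level of free rod RNA in this class. The members' median was -0.11, and the 9 rod markers summed to 9015 and 8362 CPM, with 7 of 9 lower. Intervals lay above 0 for 2 of 37 members (background 5.41%) and below 0 for 8 of 37 (background 6.12%), among them Rom1, Prph2 and Mak at -0.22, -0.21 and -0.37.

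In Müller glia-like cells 2 of 36 measured members passed the fold higher (background 6.48%) and 1 lower (background 7.68%). Rpgr was at 44.8 CPM (63 UMIs) in wild-type and 21.8 CPM (17 UMIs) in db/db cells, a log2 ratio of -1.04 (-1.90 to -0.25). Fscn2 was at 47.0 and 69.3 CPM, a ratio of 0.56 (0.02 to 1.10), and Spata7 at 39.1 and 59.1 CPM, with an interval that reached 0. The members' median was 0.15, and the rod markers summed to 8124 and 9424 CPM, with 8 of 9 higher. Markers of cones summed to 646 and 324 CPM, with 8 of 10 lower, and those of bipolar cells to 1021 and 618 CPM, with 10 of 12 lower. The part of these markers in the members' values, Rpgr among them, was not tested. Intervals lay above 0 for 7 of 36 members (background 5.90%), among them Rom1 at 0.28, Rpgrip1 at 0.29 and Fam161a at 0.36, and below 0 for 1 of 36 (background 5.50%). In the wild-type library 187 of the 351 cells lay in a deeper cluster (median 5727 UMIs), as did 91 of the 204 db/db cells (median 6345 UMIs).

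In microglia or macrophage-like cells 13 members were measured and 7 of them passed the fold lower in db/db (background 13.9%) and 0 higher (background 10.4%). Intervals lay below 0 for 8 of 13 (background 11.2%) and above 0 for 0 of 13 (background 9.51%). Their median was -0.58, while the 9 rod markers summed to 7185 and 5918 CPM, with 8 of 9 lower, and none of the 13 lay above the highest rod-only gene of this class (34.0% and 25.5% of the rod level). Cep290 was at 243 CPM (52 UMIs) and 97.1 CPM (27 UMIs), a log2 ratio of -1.32 (-2.05 to -0.63). Markers of Müller glia summed to 495 and 1877 CPM in this class, with 10 of 10 higher in db/db, and endothelial markers to 84.0 and 787 CPM, with 7 of 7 higher. The class's own markers summed to 23157 and 18160.5 CPM, with 8 of 10 lower, and bipolar markers to 322 and 93.5 CPM, with 9 of 12 lower. The part of free rod RNA and of these other cell types in the values was not tested.

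The remaining genes of the same roles were read for comparison with the members. Of 79 such genes, 74 were measured in rods, where 0 passed the fold higher and 1 lower, with a median of -0.03. The 1 was Kif17, a kinesin motor, at -0.72 (-1.33 to -0.13) from 62 and 41 UMIs. In cones 68 were measured, with 2 higher and 0 lower. The 2 were Kiz, a centrosomal protein, at 0.74 (0.18 to 1.31) from 47 and 68 UMIs, and Cep78, another centrosomal protein, at 0.64 (-0.19 to 1.48) from 23 and 31 UMIs. Of 73 with enough UMIs, 12 were higher in cones than in rods in both libraries, beside 8 of the 39 members.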

How the data were processed

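Single-cell libraries were made with 10x Genomics 3' v3.1 chemistry from 2 mice per genotype, per the labels' protocols. The deposited UMI count matrices were written by cellranger 6.0.1, per the file headers, on mm10, per the submitters' processing notes. The annotation release and the use of strand in counting are not given in the sources used here, so genes were placed by GENCODE M21 (GRCm38). From 10308 wild-type and 11083 db/db barcodes, cells with at least 200 genes and at most 20% mitochondrial UMIs were kept (35524110 and 33545662 UMIs). Cells were clustered without the 39 members in 2 rounds (2000 variable genes, 40 components, 15 neighbours, Leiden resolution 1.0; scanpy 1.11.5, leidenalg 0.10.2). Clusters were named from marker genes, and clusters outside rods with at least 0.8 of the rod-only level of rods, a limit set after the data were seen, were left out as mixed. A rod marker is not reported here and was left out of the rod-only genes and the marker sums. Scrublet called 0 and 2 doublets, so doublets were largely kept.

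UMIs were summed per class and library and scaled to CPM. Ratios carry exact conditional binomial 95% intervals (scipy 1.17.1), with a count of 0 set to 3. They were run on counts simulated with counting error alone, which hold no variation between mice, libraries or cells. The intervals cover counting error only, and no p-value was computed. Whether an interval leaves out 0 depends on UMIs, and the background genes were not matched to the members in UMIs. A member was measured with at least 50 UMIs over both libraries in a class, and called past a log2 ratio of 0.5. Named were, per role, the members with the highest and lowest cone to rod ratio and the most UMIs, and, between libraries, those past the fold with an interval without 0 and otherwise the 3 highest and 3 lowest by the bound nearest 0. Other members were added to account for the whole set. The members and lists were chosen with earlier results of these data known. Alternatives were other cell filters, resolutions, a marker gate, doublet removal, thinning to 1000 UMIs, equal weight per cell, subtraction of free rod RNA, another scaling and other UMI minimums.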

Additional observations from a re-analysis of the deposited data

How the results depend on the processing

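No paired analysis was possible because each genotype had 1 library. Of 119 values for medians and counts under alternative settings, 114 kept to the reported value and 5 moved. A median was kept when it lay between the medians of the members' lower and upper interval bounds, a count when it was within 1.5 times it, and a single gene's ratio when it lay within its counting interval. In rods the members' median ran from -0.02 to 0.01 (-0.024 to 0.0090), and in cones from -0.06 to 0.01 (-0.063 to 0.015). With free rod RNA subtracted, 4 members passed the fold higher and 2 lower in cones. The bipolar-like median ran from -0.22 to 0.01 and the Müller glia-like median from 0.06 to 0.43. With equal weight per cell 2 cone members passed it higher, and with cells thinned to 1000 UMIs 1 of 32 passed it lower. In rods of 6 to 20% mitochondrial UMIs 2 members passed it lower. No share of all genes past the fold is given for these settings, and the shares of the main setting do not apply to these counts. The rod ranges by mitochondrial share, and leaving out clusters with at least 50% of the rod-only level, were chosen after seeing the data. Members higher in cones ranged from 8 to 11 and those highest in photoreceptors from 35 to 37. Of 324 values for single genes, 64 moved and 1 reversed, Arl3 in microglia or macrophage-like cells at 0.15 (main -0.94) with cells classed by a marker gate. The cause of these moves was not tested. Depth limits Rp2, Nphp4, Ift140 and Ift172, which had 33 UMIs or fewer in the cones of either library.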
